A study of Mus musculus with 3 samples.

Results

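Interferon-stimulated endothelial cells (EC) of the mouse Peyer's patch (PP), the lymphoid tissue of the small intestine wall, were counted and described in 3 single-cell RNA sequencing libraries. A cell was taken as interferon-stimulated when it held at least 6 unique molecular identifiers (UMIs, each standing for a captured transcript) of 6 interferon-stimulated genes, *Rsad2*, *Ifit3*, *Ifit3b*, *Cmpk2*, *Ifit2* and *Oasl1*, called gate genes here. Cells with fewer than 500 genes, fewer than 1000 UMIs or a mitochondrial share above 10% were left out beforehand. EC were cells with at least 3 UMIs of *Pecam1*, *Cdh5*, *Egfl7*, *Emcn* and *Flt1*, and with fewer UMIs of the fibroblast genes *Col1a1*, *Col1a2*, *Dcn*, *Pdgfra* and *Lum* than of those 5. The rule found 173 interferon-stimulated EC among 8056 EC, out of 12480 barcodes in all. The cells were thus selected on the measured UMIs of the 6 gate genes, so the levels of these genes are a description and were not tested.

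The study asked how the nuclear receptor COUP-TFII, encoded by *Nr2f2*, controls the mucosal addressin genes of PP vessels. The control library came from mice labelled WT, of strain C57BL/6. Both EC-iCOUPOE libraries, replicates 1 and 2, came from CDH5(PAC)CreERT2;COUP-TFIIOE/OE mice, in which tamoxifen activates a Cre recombinase under the *Cdh5* promoter and EC then overexpress COUP-TFII. By the methods of the study, blood EC of EC-iCOUPOE and control mice aged 6 to 10 weeks were sorted 14 to 19 days after tamoxifen. Male and female cohorts were pooled in each library, and their balance differed between libraries, as given with the sex-linked genes below. The *Cdh5* promoter is active in blood and lymphatic endothelium alike, so the transgene marks no vessel type. How many mice each library held, on which day it was made, and whether the control mice received tamoxifen are not given in the labels. The paper states that it profiled tamoxifen-treated controls without Cre as well as WT mice. The label WT does not tell which of these the control library holds. With 1 control library, genotype and library cannot be told apart, and no test between genotypes was made.

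Type I interferons bind the receptor pair Ifnar1 and Ifnar2, whose kinases Jak1 and Tyk2 lead to a nuclear complex holding Irf9 that binds the interferon-stimulated response element of antiviral genes. Interferon gamma acts through Ifngr1 and Ifngr2 and is known for inducing Irf1, interferon-inducible GTPases and *Cxcl9*. Among the gate genes, *Rsad2* encodes viperin, which makes an antiviral nucleotide from the product of Cmpk2, the Ifit proteins bind foreign RNA, and *Oasl1* restrains translation of Irf7. Endothelium responds to both kinds of interferon with antiviral proteins, antigen presentation and chemokines that draw lymphocytes to the vessel wall.

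Some promoters of gate genes and of genes that went with them are shown, chosen because the response element can be read in them. Each line below gives 150 bases before a transcription start of RefSeq, on build GRCm38.p6 and along the strand of the gene, with the letters GAAANNGAAA or TTTCNNTTTC in capitals, the core of the element on either strand. *Rsad2* (chr12:26456453-26456602, minus strand), *Ifit3* (chr19:34583379-34583528, plus strand), *Isg15* (chr4:156200819-156200968, minus strand), *Ifit1* (chr19:34640739-34640888, plus strand) and *Ifi206* (chr1:173491319-173491468, minus strand) are printed, the first 2 being gate genes and the last a gene from the test further on.
Rsad2: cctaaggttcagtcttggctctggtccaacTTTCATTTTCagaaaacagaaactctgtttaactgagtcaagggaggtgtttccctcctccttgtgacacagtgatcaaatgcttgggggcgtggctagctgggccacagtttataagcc
Ifit3: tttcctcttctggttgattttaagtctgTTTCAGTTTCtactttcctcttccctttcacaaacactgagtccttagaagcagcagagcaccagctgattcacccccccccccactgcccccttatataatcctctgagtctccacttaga
Isg15: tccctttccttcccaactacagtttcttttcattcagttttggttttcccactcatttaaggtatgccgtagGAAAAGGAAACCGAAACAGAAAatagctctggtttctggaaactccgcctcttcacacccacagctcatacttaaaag
Ifit1: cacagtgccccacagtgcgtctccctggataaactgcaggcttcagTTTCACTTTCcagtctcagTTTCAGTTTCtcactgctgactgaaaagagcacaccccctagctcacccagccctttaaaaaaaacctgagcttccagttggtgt
Ifi206: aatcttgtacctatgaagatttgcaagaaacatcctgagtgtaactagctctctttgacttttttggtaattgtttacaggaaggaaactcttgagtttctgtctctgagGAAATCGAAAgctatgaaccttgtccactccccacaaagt
In *Isg15* 3 overlapping matches began 78, 72 and 66 bases before the start, whereas *Rsad2* had 1 match, 120 bases before it, and *Ifi206* had 1, 40 bases before it. *Ifit1* had matches at 104 and 85 bases, and *Ifit3* at 156 and 122 bases, of which only the nearer lies in the stretch shown. In windows of 300 bases (250 before and 50 after the start) the letters stood in 1131 of 32851 RefSeq promoters, or 3.44%. They stood in those of *Rsad2*, *Ifit3* and *Ifit3b* and not in those of *Cmpk2*, *Ifit2* and *Oasl1*. Counted by gene, with any window of a gene, they stood in 1079 of 27025 genes (3.99%). Of 19 interferon-list genes at least 2-fold higher in every library, described below, 13 had a matched promoter and 8 of these held the letters. Of the other interferon-list genes with enough UMIs, 29 of 79 with a matched promoter (36.7%) held them as well. Of 7 genes higher in the test, 5 had a matched promoter and 3 of these held them, *Ifi206*, *Ifi208* and *Ifi211*. The promoters of *Ifi206* and *Ifi208* have nearly the same sequence. A match is a description of the letters and says nothing of whether a factor binds there. *Rsad2* (chr12:26442743-26456452) and *Cmpk2* (chr12:26469117-26479837) are neighbours, *Ifit2* (chr19:34550550-34576534), *Ifit3* (chr19:34583119-34588982), *Ifit3b* (chr19:34607530-34613403) and *Ifit1* (chr19:34640889-34650009) lie side by side, and *Oasl1* is at chr5:114923143-114937911. *Ifit3* and *Ifit3b* are near-identical copies, so reads may have been split between them and their separate levels are uncertain.

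The control library held 6080 barcodes with 17341398 UMIs, EC-iCOUPOE replicate 1 held 4959 with 17417260 and EC-iCOUPOE replicate 2 held 1441 with 3548983. EC numbered 2469, 4516 and 1071 in that order. Of 5473, 4750 and 1243 cells past the quality filter, 3004, 234 and 172 fell outside the EC gate, so the libraries differed in cell make-up. The control library and EC-iCOUPOE replicate 2 had 12 barcodes in common, 4 of them EC in both and none an interferon-stimulated cell, and no other pair of libraries shared a barcode. Scrublet called no interferon-stimulated cell a doublet, but it called only 6 of 4750 cells (0.126%) in EC-iCOUPOE replicate 1, too few to be relied on.

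Interferon-stimulated EC were present in every library and most frequent in EC-iCOUPOE replicate 1. They numbered 7 of 2469 EC in the control library, 0.284% with an exact 95% interval of 0.114 to 0.583%. In EC-iCOUPOE replicate 1 they numbered 154 of 4516 EC, 3.41% (2.90 to 3.98%), and in EC-iCOUPOE replicate 2 12 of 1071, 1.12% (0.580 to 1.95%). The interval of EC-iCOUPOE replicate 1 lay above both others, and those of the control library and EC-iCOUPOE replicate 2 overlapped at their edges. All such intervals, and those of CPM values (UMIs of a gene or list per 1000000 UMIs of the same cells), cover counting error only and not differences between mice.

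A gate that counts UMIs favours deeply sequenced cells, and the medians over all EC were 2305, 2998 and 2311 UMIs in the control library and the EC-iCOUPOE replicates 1 and 2. Each EC was therefore thinned to 1000 UMIs and asked for at least 3 gate UMIs, which gave 0.405% (0.194 to 0.744%), 2.10% (1.71 to 2.57%) and 1.31% (0.716 to 2.18%). The EC-iCOUPOE libraries then had overlapping intervals, and replicate 2 and the control library still did. Thinned to 2000 UMIs and asked for 6 gate UMIs, 1 of 1413 control EC (0.0708%, 0.00179 to 0.394%), 45 of 3575 in replicate 1 (1.26%, 0.920 to 1.68%) and 7 of 699 in replicate 2 (1.00%, 0.404 to 2.05%) remained. At that depth the control interval ended just below those of both EC-iCOUPOE libraries, at 0.394% against 0.404% for replicate 2, with 1 control cell. All thinned counts come from a single random draw, and another draw could change this. Any nucleated cell can express these genes, so no cell type could serve as a background for free RNA, whose part in the shares was not tested.

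**Figure D1:**
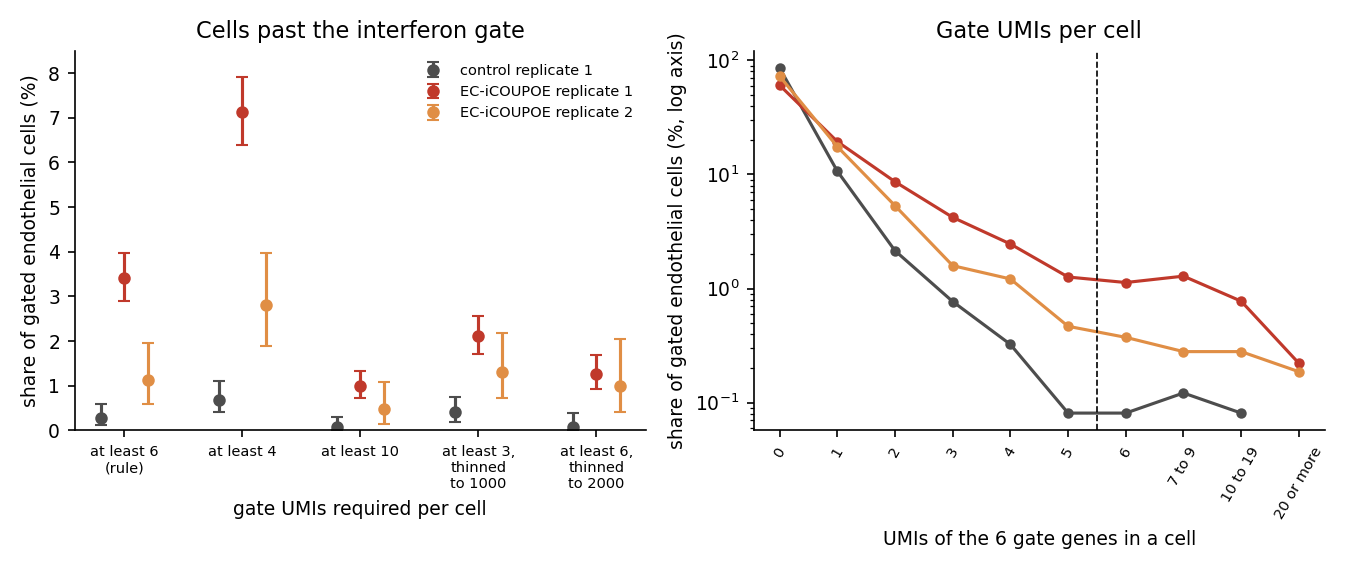
Left, share of EC (%) that held the required number of gate UMIs in each library, with exact 95% binomial intervals, at the rule of 6 UMIs and at other requirements. Right, share of EC (%, log axis) by the number of gate UMIs in a cell, with the dashed line at the rule. The control library lies lowest at each requirement, and no gap parts the cells on either side of the line.

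Gate UMIs per cell formed a continuous range. Most EC had no gate UMI at all, namely 85.7% in the control library, 60.6% in EC-iCOUPOE replicate 1 and 72.7% in EC-iCOUPOE replicate 2. Just outside the rule, 2, 57 and 5 EC held 5 gate UMIs in that order, and just inside it 2, 51 and 4 held 6. The plot of gate UMIs per cell falls without a step across the rule, so the cells are the upper end of a range. Over all 173 cells the median was 7 gate UMIs, 92 cells had 6 or 7, and the highest values were 15 in the control library, 261 in replicate 1 and 48 in replicate 2.

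*Ifit3* carried the gate. Of 1994 gate UMIs in the 173 cells, *Ifit3* gave 1089, *Rsad2* 316, *Ifit2* 287, *Ifit3b* 109, *Oasl1* 107 and *Cmpk2* 86. It led in 138 cells, and 24 cells passed on a single gene, 22 of them on *Ifit3* and 2 on *Ifit2*. All 24 were from EC-iCOUPOE replicate 1. Only 54 cells held any *Rsad2*, and 39 held at least 4 of the 6 gate genes. The make-up differed between libraries, since *Rsad2* gave 37.1% of the gate UMIs in the 7 control cells, 14.2% in replicate 1 and 25.3% in replicate 2. A single cell held 13 of the 23 *Rsad2* UMIs in the control library, 107 of 250 in replicate 1 and 25 of 43 in replicate 2.

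A few cells held much of the strongest response. In EC-iCOUPOE replicate 1, a dividing-like cell of 9387 UMIs had 261 gate UMIs, of which *Rsad2* gave 107 and *Ifit3* 68, together with 128 UMIs of *Isg15*, 38 of *Ifit1* and 75 of *Cxcl10*. It also held all 114 UMIs of *Ccl5* in these cells, a T cell-attracting chemokine named here after its values were seen. The next cell of that library had 69 gate UMIs, and in EC-iCOUPOE replicate 2 a pair of capillary-like cells had 44 and 48. Without the strongest cell of each library *Rsad2* fell from 753 to 347 CPM in the control library, from 320.2 to 152 CPM in replicate 1 and from 1265 to 611 CPM in replicate 2. *Ifit3* moved far less when the strongest cell was left out, from 688 to 695 CPM, from 1446 to 1358 CPM and from 2235 to 2343 CPM.

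Vessel types were read from clusters made without the gate genes, the interferon, MHC and chemokine lists and the genes of the study. Clusters were called "-like" after marker lists, and those led by *Enpp6* and by *Fabp6* kept no vessel name. Interferon-stimulated cells were found in 10 of these classes in EC-iCOUPOE replicate 1, and most often among postcapillary venule-like (PCV-like) cells, marked by *Selp* and *Ackr1*, the vessels that leukocytes leave through. Of 751 PCV-like cells 55 were interferon-stimulated, 7.32% (5.56 to 9.43%), and of 971 capillary-like cells 25, 2.57% (1.67 to 3.78%). These intervals did not overlap. The PCV-like class pooled a pair of clusters that differed, cluster 3 with 49 of 492 cells (9.96%, 7.46 to 13.0%) and cluster 9 with 6 of 259 (2.32%, 0.855 to 4.97%), and none of the 10 leading genes of cluster 9 was a PCV marker.

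Depth differed between these classes, with a median of 3675 UMIs in PCV-like and 2164 in capillary-like cells, and its part in the difference was not tested. Thinned to 1000 UMIs, 3.33% (2.17 to 4.88%) of PCV-like and 2.16% (1.34 to 3.29%) of capillary-like cells passed, with overlapping intervals. As a description of the genes that chose the cells, the gate genes together stood at 372 CPM (351 to 394) in all PCV-like cells and at 374 CPM (350 to 399) in all capillary-like cells of replicate 1. These intervals overlapped too. With classes set per cell from summed markers, 4.97% (3.79 to 6.39%) of PCV-like and 3.34% (2.11 to 5.02%) of capillary-like cells passed, again with overlapping intervals.

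In EC-iCOUPOE replicate 2, 2 of 95 PCV-like cells (2.11%, 0.256 to 7.40%) and 6 of 502 capillary-like cells (1.20%, 0.440 to 2.58%) passed, too few to order them. The control library had 0 of 371 PCV-like cells, which allows up to 0.809% at the limit of 3 cells, 1 of 834 capillary-like, 2 of 357 arterial-like and 2 of 183 capillary resident progenitor-like cells. The 7 control cells were thus spread over 5 classes, the other ones being high endothelial-like and the *Fabp6* cluster with 1 cell each. The capillary-like class was made of different clusters in the libraries. Cluster 0, whose leading genes include the interferon genes *Tgtp2*, *Cxcl10* and *Socs1* although none of the listed interferon genes entered the clustering, held 511 of 971 such cells in replicate 1, 287 of 502 in replicate 2 and 102 of 834 in the control library.

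Of the other classes of EC-iCOUPOE replicate 1, 3 lay between the shares of the capillary-like and PCV-like classes and the rest below both. This order held only in part after thinning. Capillary resident progenitor-like cells, known as the proliferative reserve of the capillary bed, passed in 12 of 239 (5.02%), the *Fabp6* cluster in 23 of 491 (4.68%), dividing-like cells in 6 of 150 (4%) and the *Enpp6* cluster in 12 of 638 (1.88%). Arterial-like cells passed in 1 of 182 (0.549%) and high endothelial-like cells, which lymphocytes enter through, in 1 of 93 (1.08%). Lymphatic endothelial-like cells, which a sort for blood EC should have removed, gave 16 of 867 (1.85%) and a further 3 came from 133 cells that resembled pericytes. Thinned to 1000 UMIs, the *Fabp6* cluster, with a median depth of 5114 UMIs, passed in 1.83% and lymphatic endothelial-like cells in 2.19%, below and above the 2.16% of capillary-like cells, with overlapping intervals. Capillary resident progenitor-like (2.93%) and dividing-like cells (2.67%) still lay between capillary-like and PCV-like cells. Leaving out the last 2 kinds, 7, 135 and 12 interferon-stimulated cells and 2376, 3380 and 950 other blood EC remained in the control library and EC-iCOUPOE replicates 1 and 2, and the gene levels below compare these.

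The gate genes were used in unequal proportions by the vessel classes. In the 55 PCV-like cells of EC-iCOUPOE replicate 1 *Ifit3* gave 368 of 524 gate UMIs and *Rsad2* only 11, and 15 of the 24 cells that passed on a single gene were PCV-like. In its 25 capillary-like cells *Ifit3* gave 157 and *Rsad2* 22 of 250, and the 6 capillary-like cells of replicate 2 had 43 and 40 of 122. Of those 40 *Rsad2* UMIs, 13 and 25 were in the cells with 44 and 48 gate UMIs. In the 16 lymphatic endothelial-like cells of replicate 1 the split was 66 *Ifit3*, 42 *Ifit2* and 41 *Rsad2* of 174. *Ifit3* gave 70.2% of the gate UMIs in PCV-like, 70.4% in *Enpp6* cluster, 62.9% in capillary resident progenitor-like and 59.7% in *Fabp6* cluster cells of replicate 1.

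**Figure D2:**
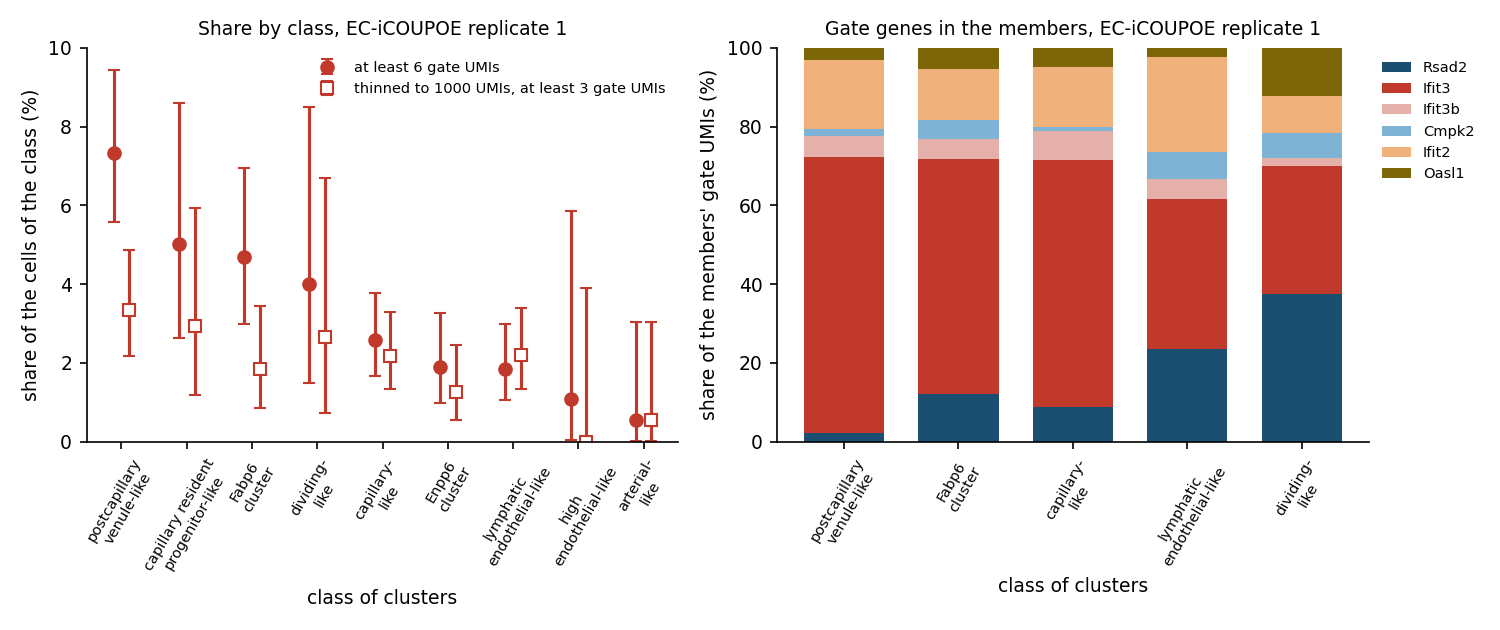
Left, share of each class of clusters (%) that was interferon-stimulated in EC-iCOUPOE replicate 1, before and after thinning each cell to 1000 UMIs, with exact 95% binomial intervals. Right, make-up of the gate UMIs of interferon-stimulated cells (%) in 5 classes of that library, where *Rsad2* is smallest in postcapillary venule-like and largest in dividing-like cells, the latter holding the cell with 261 gate UMIs.

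Interferon ligands were almost undetected. Of 21 interferon ligand genes, 20 had no UMI in any cell of any library, including *Ifnb1*, *Ifna4* and the lambda interferons *Ifnl2* and *Ifnl3*. *Ifng*, the ligand made by T and NK cells, had 2 UMIs, both in the control library and neither in an interferon-stimulated cell. By the methods of the study the cells were sorted, though many cells outside the EC gate remained in the control library. Cells that the sort removed were not measured, and 0 UMIs do not show that a ligand was absent.

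Of the receptor genes, *Ifnar2* and *Ifngr1* were named because they were lower in every library. *Ifnar2*, the high-affinity chain of the type I receptor, stood at 164, 121 and 29.4 CPM in interferon-stimulated cells and at 185, 123 and 151 CPM in other blood EC of the control library and EC-iCOUPOE replicates 1 and 2. *Ifngr1*, the ligand-binding chain for interferon gamma, stood at 98.2, 245 and 147 CPM against 193, 263 and 212 CPM. Their log2 ratios were -0.18, -0.03 and -2.36 for *Ifnar2*, the last from 1 UMI, and -0.97, -0.10 and -0.53 for *Ifngr1*. The partner chains *Ifnar1* (0.97, -0.22 and -0.61) and *Ifngr2* (0.71, -0.29 and 1.31), given after their values were seen, kept no direction.

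Signalling genes were read with the receptors as 1 list. *Irf9*, the DNA-binding part of the type I complex, had log2 ratios of 0.98, 0.56 and -0.07, and *Socs1*, the feedback inhibitor of Jak kinases, of 0.48, 1.10 and 0.63. *Irf2* had ratios of 0.54, 0.41 and 0.46. *Irf8* had ratios of 1.05, 0.83 and 0.86, the first from 2 UMIs in 1 cell, but against matched cells it stood at 36.6 and 31.4 CPM in replicate 1 and at 88.2 and 106 CPM, the other way round, in replicate 2. *Irf1*, named after its values were seen, was lower in the control cells by -1.62 and higher in the EC-iCOUPOE cells by 0.68 and 1.04, with 3 UMIs in the control cells. Of 18 genes of interferon receptors and signalling with at least 20 UMIs in interferon-stimulated cells, 0 were at least 2-fold higher in every library, and their medians were 0.51, 0.22 and 0.23. Over all 4808 genes with that many UMIs outside the gate, 21 or 0.437% were at least 2-fold higher in every library and 1 or 0.0208% was at least 2-fold lower, and the medians were -0.08, 0.00 and -0.13. A gene that is high in these cells passes that filter more easily than one that is low. Counts are therefore also given over genes with at least 20 UMIs expected in these cells at the level of other blood EC, a filter chosen after seeing the data, under which 13 of 4782 genes (0.272%) were at least 2-fold higher in every library and 5 (0.105%) at least 2-fold lower. Of the receptor and signalling genes 0 of 16 were higher under it.

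*Isg15*, *Ifit1* and *Usp18*, genes of the response outside the gate, were high in interferon-stimulated cells of every library. *Isg15*, a ubiquitin-like protein that is attached to other proteins during the response, stood at 1179 CPM (826 to 1632), 1376 CPM (1286 to 1471) and 2912 CPM (2367 to 3545) in interferon-stimulated cells. In other blood EC it stood at 161, 300.4 and 387 CPM, so the groups lay apart in each library by log2 ratios of 2.87, 2.20 and 2.91. It had a UMI in 100%, 92.6% and 100% of interferon-stimulated cells, against 17.1%, 56.4% and 45% of 35, 675 and 60 other cells matched to them for library, cluster and depth. *Ifit1*, the cap-binding member of the Ifit family, stood at 458, 706 and 1265 CPM against 63.2, 122 and 201 CPM. *Usp18*, which removes Isg15 and damps the receptor, stood at 196, 132 and 441 CPM against 20.7, 23.6 and 39.4 CPM. The log2 ratios were 2.86, 2.54 and 2.65 for *Ifit1* and 3.24, 2.48 and 3.48 for *Usp18*, whose control value rested on 6 UMIs, and differences between libraries in these ratios were not tested. Because these genes belong to the response that chose the cells, their differences are a description.

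Of the 51 genes of the type I interferon response with enough UMIs, 10 were at least 2-fold higher in every library and 0 at least 2-fold lower, beside the 0.437% of all genes given above. With the filter on other blood EC these were 7 of 39 and 0, and *Usp18*, *Phf11b* and *Ifi204* had entered only through their level in interferon-stimulated cells. The 10 were *Isg15*, *Ifit1*, *Usp18*, *Herc6*, *Ifi44*, *Irf7*, *Oasl2*, *Phf11b*, *Tor3a* and *Ifi204*, of which *Phf11b* and *Ifi204* had 1 UMI each in the control cells. *Irf7*, the factor that amplifies type I interferon production, stood at 557, 355 and 559 CPM against 79.0, 161 and 107 CPM. *Ifi44* stood at 393, 269 and 412 CPM against 53.6, 91.9 and 74.2 CPM. *Ifitm3*, which blocks viral entry and is high in all EC, differed less, at 7237, 9413 and 9589 CPM against 4974, 7404 and 6008 CPM. Medians over the 51 genes were 0.91, 1.05 and 1.42, and over the 39 genes 0.90, 0.94 and 1.36. With both EC-iCOUPOE libraries alone 23 of the 51 passed, against 51 of all 4808 genes (1.06%), of which 7 (0.146%) were at least 2-fold lower.

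**Figure D3:**
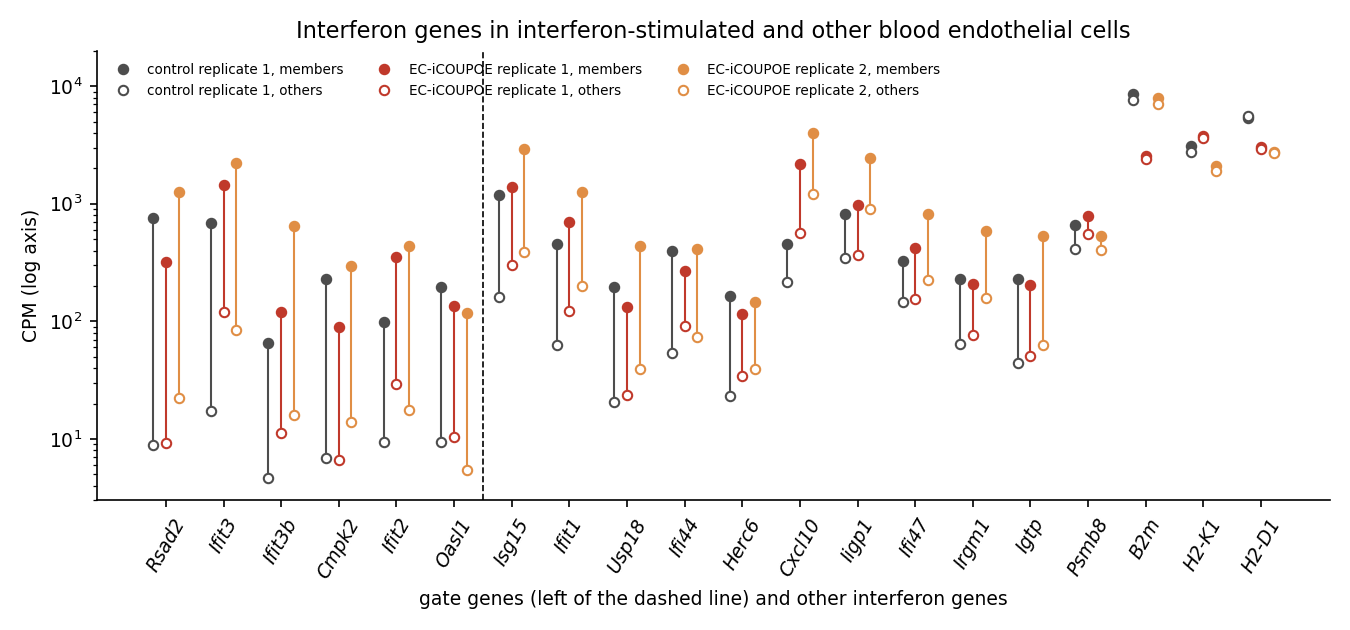
Level (CPM, log axis) of the gate genes, left of the dashed line, and of other interferon genes in interferon-stimulated cells (filled) and other blood EC (open) of each library, joined by a line for each library. The lines are long for *Isg15*, *Ifit1* and *Usp18*, shorter for *Psmb8*, and close to nil for *B2m*, *H2-K1* and *H2-D1*.

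Of 9 genes with enough UMIs in the list of nucleic acid sensors and effectors, 3 were at least 2-fold higher in every library, namely *Zbp1*, *Eif2ak2* and *Nlrc5*. The share over all genes was 0.437%. With the filter on other blood EC 1 of 4 was higher, *Eif2ak2*, against 0.272% of all genes. *Zbp1* and *Nlrc5* had entered only through their level in interferon-stimulated cells. *Zbp1*, a sensor of Z-form nucleic acids that can start necroptosis, stood at 131, 97.2 and 176 CPM against 12.4, 26.2 and 16.8 CPM, log2 ratios of 3.4, 1.89 and 3.4. *Eif2ak2*, the RNA-activated kinase PKR, had ratios of 1.38, 1.16 and 1.88, and *Nlrc5*, the activator of MHC class I genes, of 3.13, 1.01 and 2.32. *Ifih1*, the RNA sensor MDA5, was higher by 2.44, 0.96 and 2.49, whereas *Adar* and *Tmem173* (STING) stayed under 2-fold with 0.68, 0.75 and 0.55 and with 0.82, -0.01 and 0.46. The control and EC-iCOUPOE replicate 2 values of *Nlrc5* rested on 2 UMIs and 1 UMI, those of *Zbp1* on 4 and 6 and those of *Eif2ak2* on 4 and 3.

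Interferon-inducible GTPases attack membranes around intracellular microbes. *Iigp1* stood at 819 CPM (530 to 1208), 973 CPM (898 to 1054) and 2441 CPM (1944 to 3026) in interferon-stimulated cells, against 347, 370 and 898 CPM in other blood EC. *Igtp* stood at 229, 202 and 529 CPM against 44.4, 50.3 and 62.5 CPM, *Irgm1* at 229, 207 and 588 CPM against 64.1, 76.8 and 159 CPM, and *Ifi47* at 327, 424 and 824 CPM against 146, 156 and 225 CPM. These 4 genes and *Gbp5* were at least 2-fold higher in every library, 5 of 14 with enough UMIs, *Gbp5* by a ratio of 1.01 from 1 UMI in the control cells, and the medians were 1.15, 1.46 and 2.00. With the filter on other blood EC, which leaves out *Gbp5*, 4 of 9 were, against 0.272% of all genes. In both EC-iCOUPOE libraries, without the control library, 8 of the 14 were, against 1.06% of all genes. *Gbp3* had ratios of 1.47, 1.48 and 0.82. Levels of GTPases with near-identical copies, such as *Tgtp1* and *Tgtp2*, are uncertain because reads may be split between them.

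Chemokines were led by *Cxcl10*, the ligand of Cxcr3 on activated T cells. It stood at 458 CPM (251 to 769) in the control cells, 2171 CPM (2057 to 2290) in EC-iCOUPOE replicate 1 and 4030 CPM (3383 to 4764) in replicate 2, against 216, 562 and 1216 CPM in other blood EC. It had a UMI in 28.6%, 58.5% and 83.3% of interferon-stimulated cells and in 14.3%, 35.1% and 50% of matched cells. Its log2 ratios of 1.08, 1.95 and 1.73 made it the 1 gene of 5 chemokines to be at least 2-fold higher in every library. Over all genes that share was 0.437%. *Cxcl9*, which shares its receptor, had ratios of 0.46, 1.92 and 1.88, and *Cxcl1*, a neutrophil chemokine, had -1.58, -0.53 and -1.37. Without the strongest cell of each library *Cxcl9* had 1 and 2 UMIs in the control and replicate 2 cells, and *Cxcl1* 2 and 1. *Cxcl16* did not keep a direction.

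Antigen presentation genes differed little. Of 21 genes of MHC class I and antigen processing with enough UMIs, 0 were at least 2-fold higher in every library, with medians of 0.18, 0.30 and 0.18. The immunoproteasome cuts peptides for MHC class I. Its subunit *Psmb9* had log2 ratios of 1.65, 0.41 and 0.74 and *Psmb8* of 0.68, 0.51 and 0.40, the replicate 2 values from 10 and 18 UMIs. The peptide transporter gene *Tap2* had ratios of 1.00, 0.41 and 0.80 and the activator subunit *Psme2* of 1.01, 0.45 and 0.30. In replicate 2 these rested on 10 and 11 UMIs. The chains of the MHC molecule itself, named after their values were seen, hardly differed, with 0.18, 0.07 and 0.18 for *B2m*, 0.18, 0.05 and 0.14 for *H2-K1* and -0.06, 0.04 and 0.01 for *H2-D1*. MHC class II, 7 genes, gave 27 UMIs in all interferon-stimulated cells, too few to compare.

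**Figure D4:**
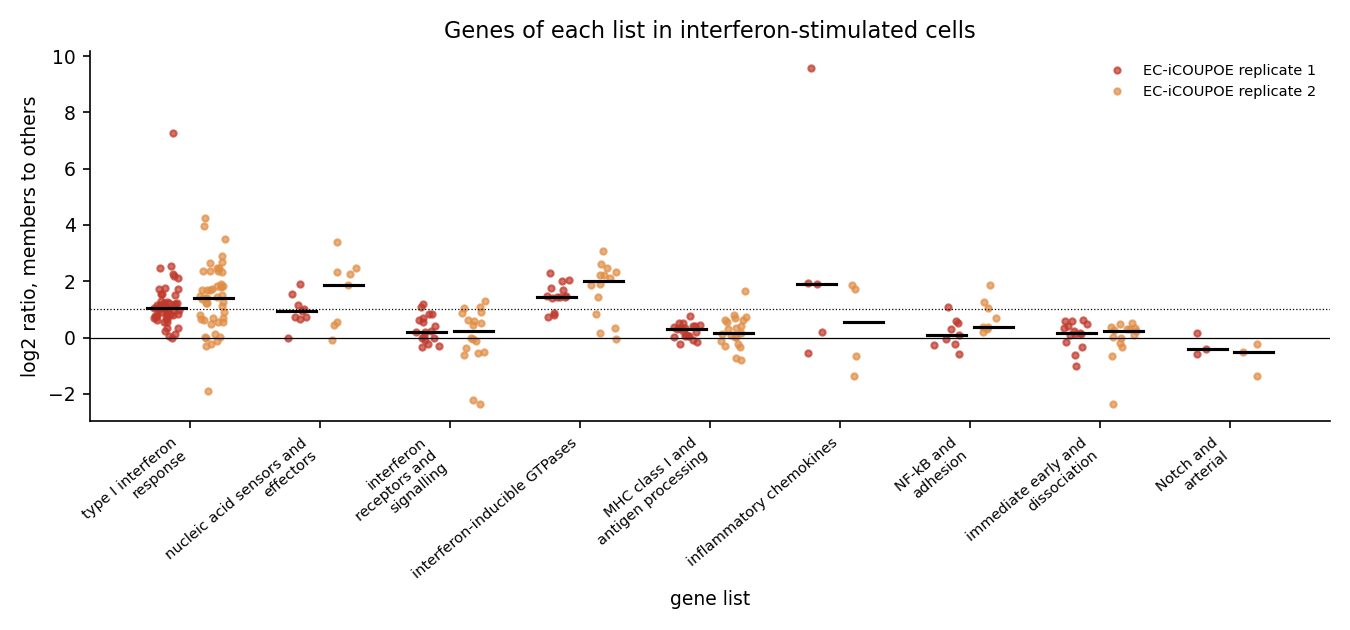
Log2 ratio of CPM in interferon-stimulated cells to other blood EC for each gene with at least 20 UMIs in interferon-stimulated cells, by gene list and EC-iCOUPOE library, with bars at the medians and a dotted line at 2-fold. Type I response genes and GTPases lie mostly above 0, MHC class I genes near 0, and the highest point is *Ccl5*, whose UMIs came from a single cell.

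*Isg15* was higher with each step in gate UMIs in both EC-iCOUPOE libraries. From 0 through 1 to 2, 3 to 5 and 6 to 9 to at least 10 gate UMIs, *Isg15* stood at 199, 377, 604, 1008 and 2092 CPM in blood EC of EC-iCOUPOE replicate 1. In replicate 2 the values were 288, 574, 852, 2034 and 4115 CPM, and in the control library 130.3, 307, 705, 1283 and 948 CPM, the last from 2 cells. *Cxcl10* went over the same steps of replicate 1 from 376 through 717, 1073 and 1766 to 2959.9 CPM, without a jump at the rule. The MHC class I list stood at 13883, 13984, 14001, 14481 and 16878 CPM, highest in cells with at least 10 gate UMIs. Median depth went from 2893 to 4436 UMIs along these steps, and its part in the levels was not tested.

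*Isg15* was highest in the cells that passed on at least 4 gate genes. In EC-iCOUPOE replicate 1, 75 blood EC with 1 or 2 gate genes had 853 CPM (757 to 958) of *Isg15*, 36 with 3 had 1278 CPM (1115 to 1457) and 24 with at least 4 had 2966 CPM (2666 to 3290). The 24 include the cell with 261 gate UMIs. In replicate 2 the values were 2732, 1242 and 5131 CPM, from 5, 4 and 3 cells, and in the control library 1034, 568 and 1799 CPM, from 1, 2 and 4 cells. Of 14 genes and lists compared between cells with 3 gate genes and cells with 1 or 2 in replicate 1, *Isg15* and *Irf7* (401 against 222 CPM) were higher, *Cxcl10* was lower (1255 against 2118 CPM), and the exact intervals of the other 11 overlapped. By class, *Isg15* stood at 950.4 CPM in interferon-stimulated PCV-like cells against 294 CPM in other PCV-like cells, and at 1614 against 316 CPM in capillary-like cells. Lymphatic endothelial-like cells, outside the blood EC comparison, had 2472 CPM against 394 CPM and 1257 CPM of *Cxcl10* against 26.2 CPM. Other blood EC of replicate 1 stood at 300.4 CPM of *Isg15*.

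**Figure D5:**
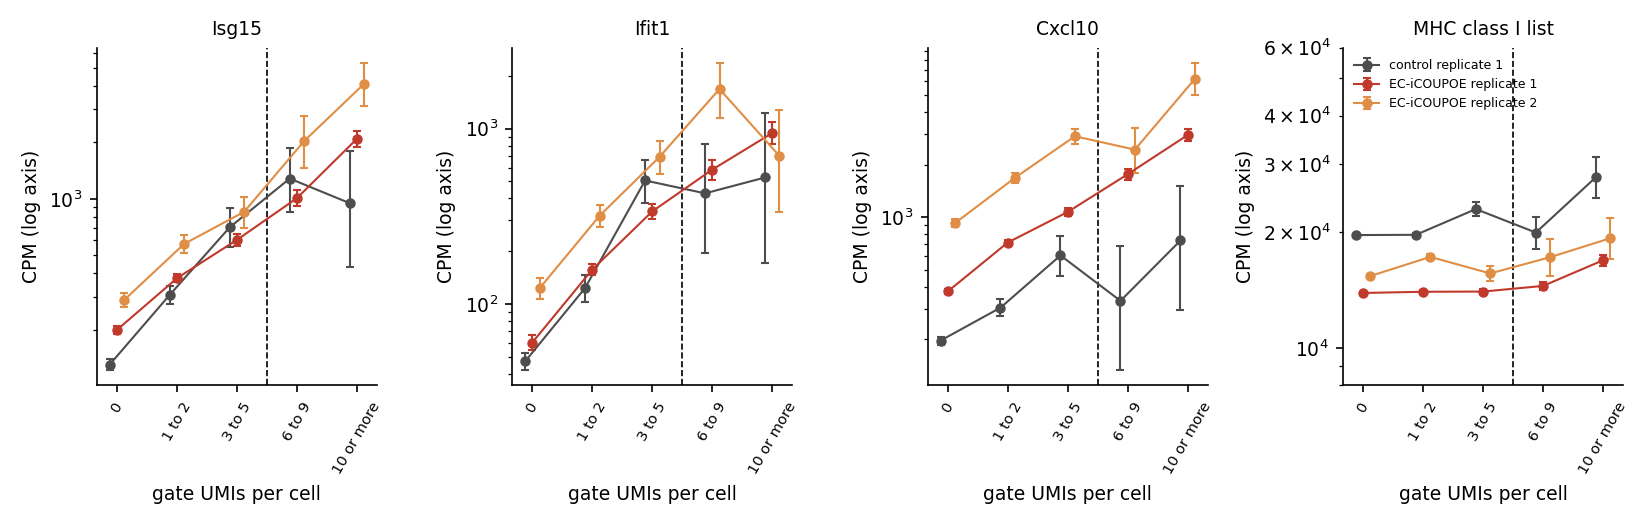
Level (CPM, log axis) of *Isg15*, *Ifit1*, *Cxcl10* and the summed MHC class I list in blood EC of each library by the number of gate UMIs in the cell, with exact 95% Poisson intervals and a dashed line at the rule of 6. The first 3 go up from left to right in EC-iCOUPOE replicate 1. In replicate 2 *Ifit1* is lower at the last step and *Cxcl10* at the last but one, and the MHC class I list varies least of the 4.

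Genes outside the gate and the interferon lists were tested between interferon-stimulated cells and other blood EC of the same library, with the library as a block. The control library, with 7 cells, was left out, so 2 libraries entered edgeR's quasi-likelihood test on summed UMIs and 1 residual degree of freedom was left. Of 8974 genes tested, 7 (0.078%) were higher and 9 (0.1%) were lower at a Benjamini-Hochberg adjusted p under 0.05, and 241 had an unadjusted p under 0.05. A test with so few libraries compares these libraries, and its calls depend on replicate 1, which holds most of the cells. With the control library kept and EC-iCOUPOE replicate 1 left out, 14 of these 16 genes were tested and 1 was called, the lower gene *Hbb-bs*. Without EC-iCOUPOE replicate 2, 7 of the 16 were called.

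The 7 higher genes were *Ifi206*, *Ifi208*, *Ifi211*, *F830016B08Rik*, *Cd274*, *Sp140* and *Adamts4*. *Ifi206*, *Ifi208* and *Ifi211* lie on chromosome 1 near the listed *Ifi209* and *Ifi213*, and *F830016B08Rik* on chromosome 18 near the listed *Iigp1*. Genes of the response can be missing from the lists, so the p values below are not independent of the response that chose the cells. The filter of the test also counted UMIs of interferon-stimulated cells, so a gene high there entered more easily. *Ifi206*, of the cluster of DNA-binding Ifi200 proteins on chromosome 1, had 29 UMIs and 46.2 CPM in interferon-stimulated cells of replicate 1 and 7 UMIs and 206 CPM in those of replicate 2, against 5.26 and 16.4 CPM in other blood EC. It rose by 3.18 ± 0.49 on the log2 scale (SE, edgeR adjusted p = 3.4e-07). Its neighbours *Ifi208* and *Ifi211* rose by 2.29 ± 0.50 (edgeR adjusted p = 0.00397) and 3.32 ± 0.83 (edgeR adjusted p = 0.0387). The copies of this family resemble each other closely, so reads may be split among them. All 3 had 0 UMIs in the 7 control cells, which allows up to 98.2 CPM at the limit of 3 UMIs. *Ifi206* had 0 UMIs in the other 2376 control blood EC as well, where *Ifi208* and *Ifi211* stood at 4.42 and 5.18 CPM.

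*Cd274*, which encodes PD-L1, the ligand that restrains T cells through PD-1, rose by 1.85 ± 0.40 (edgeR adjusted p = 0.00331). It had 31 UMIs and 49.4 CPM in interferon-stimulated cells of EC-iCOUPOE replicate 1 and 7 UMIs and 206 CPM in replicate 2, against 16.5 and 13.0 CPM, and 1 UMI in the control cells. *Sp140*, a nuclear reader of chromatin of immune cells, rose by 1.61 ± 0.33 (edgeR adjusted p = 0.00122), with 53 and 2 UMIs, 21 of the 53 in a single cell. Without the strongest cell of each library it had 32 and 0 UMIs. *F830016B08Rik*, a GTPase-like gene, rose by 2.07 ± 0.30 (edgeR adjusted p = 5.5e-08), with 77 and 2 UMIs. *Adamts4*, a protease that cleaves the proteoglycan aggrecan, rose by 1.61 ± 0.34 (edgeR adjusted p = 0.0025), with 33 and 11 UMIs, but had a log2 ratio of -0.98 in the control cells, from 1 UMI. In the fit with the control library and without replicate 1 the log2 change of *Adamts4* was 0.94 ± 0.54. *F830016B08Rik*, *Sp140* and *Cd274* had 0.85 ± 1.75, 0.21 ± 1.51 and 3.28 ± 1.13 there.

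The 9 lower genes included *Gja4*, *Stmn2* and *Mgp* of the arterial marker list. *Gja4*, a gap junction protein of arterial endothelium, stood at 47.8 and 0 CPM in interferon-stimulated cells of EC-iCOUPOE replicates 1 and 2 against 114 and 165 CPM in other blood EC, a fall of -1.46 ± 0.35 (edgeR adjusted p = 0.0258). *Stmn2* and *Mgp* fell by 1.81 (edgeR adjusted p = 4.0e-04) and 2.00 (edgeR adjusted p = 0.00122). In the 7 control cells *Gja4* and *Stmn2* were not lower, at 360.2 and 196 CPM against 240.5 and 144 CPM in other control EC. *Hbb-bs*, a haemoglobin chain that comes from red cells, had 1 UMI and fell by 4.92 (edgeR adjusted p = 1.3e-04), but 595 of its 614 UMIs in other blood EC of replicate 1 were in a single cell. *Hspa1a*, a heat shock protein that tissue dissociation induces, stood at 384 and 147 CPM against 778 and 746 CPM and fell by 1.37 (edgeR adjusted p = 0.0023). *Ssu2*, *Serpina1e* and *Ptp4a3* were called as well, and *Pglyrp1* was called although it was lower in replicate 1 and higher in replicate 2.

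Depth and vessel type move with these calls, since interferon-stimulated cells had a median of 3872 UMIs in EC-iCOUPOE replicate 1 and other blood EC 3140. Against 675 and 60 cells matched for library, cluster and depth, 5 genes were higher and 1 was lower of 5445 tested. *Ifi206*, *Ifi208*, *F830016B08Rik*, *Cd274* and *Hspa1a* were among them. *Sp140* kept its log2 difference, 1.58 against 1.61, with an edgeR adjusted p of 0.0936. *Adamts4* went from 1.61 to 1.10 and *Stmn2* from -1.81 to -0.88, each with an edgeR adjusted p of 0.938. *Ifi211*, *Mgp*, *Hbb-bs* and *Ssu2* were not among the genes tested there. *Gja4* had a log2 difference of -0.24 there, where it was -1.46 against all other blood EC. DESeq2 called 3 higher genes and 0 lower genes, with *Ifi206* and *Ifi211* shared, and 135 genes had an unadjusted p under 0.05.

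Other response lists were tested as well. Of 13 NF-kB and adhesion genes 0 passed the test and 1 had an unadjusted p under 0.05. That gene was *Selp*, the P-selectin of venules, at 357 and 529 CPM in interferon-stimulated cells of EC-iCOUPOE replicates 1 and 2 against 167 and 220.1 CPM (log2 change 1.05 ± 0.28, edgeR adjusted p = 0.0849), and at 309.5 and 341 CPM in matched cells. *Icam1* had ratios of 1.08, 0.59 and 0.38 and *Nfkbia*, the NF-kB inhibitor, of 0.38, 0.52 and 0.39. Of 15 immediate early and dissociation genes, *Hspa1a* was lower and 0 were higher, with *Fos* at 0.62, 0.34 and -0.01 and *Atf3* at 0.85, 0.61 and 0.39. Of 9 Notch and arterial genes tested 0 passed and 2 had an unadjusted p under 0.05.

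None of the 5 genes central to the study passed the test between interferon-stimulated and other blood EC. *Nr2f2* stood at 1904 CPM (1797 to 2015) in those of EC-iCOUPOE replicate 1 and 1029 CPM (717 to 1432) in those of replicate 2, against 1680.2 and 1155 CPM in other blood EC, a change of -0.08 ± 0.25 on the log2 scale (edgeR adjusted p = 1.00). It had a UMI in 97.8% and 91.7% of interferon-stimulated EC-iCOUPOE cells. The 7 control cells held 0 UMIs of *Nr2f2*, where other control EC stood at 119 CPM. For 0 UMIs in these cells the limit of 3 UMIs is 98.2 CPM and the exact interval ends at 121 CPM, on either side of that level, so no difference is called. *Madcam1*, the mucosal addressin, stood at 5632, 3219 and 3912 CPM against 6411, 3585 and 2961 CPM (-0.05 ± 0.24, edgeR adjusted p = 1.00). *St6gal1* (-0.11 ± 0.50), *Nkx2-3* (-0.29 ± 0.29) and *Hey1* (-1.19 ± 0.55), a Notch target of arteries, had adjusted p values of 1.00 in the same edgeR test as well. These intervals are wide, and a p that misses the threshold does not show that the levels were alike.

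Lymphocyte and myeloid markers were nearly absent. None of the 10 lymphocyte markers, *Ptprc* and *Cd3e* included, had a UMI in interferon-stimulated blood EC of any library, and of 9 myeloid and plasmacytoid markers only *Fcer1g* did, with 2 UMIs in the control cells and 1 in EC-iCOUPOE replicate 1. Pericyte markers gave 16 UMIs in replicate 1, 12 of them *Acta2*, or 25.5 CPM against 17.0 CPM in other blood EC, and 0 in the other libraries. Of 5 epithelial markers *Krt19* gave 128 of 129 UMIs in replicate 1, 205 CPM for the list against 128 CPM, with *Epcam*, *Krt8* and *Cdh1* at 0. Glial markers gave 2 UMIs in replicate 2 and 0 elsewhere. The 6 lymphatic markers stood at 202 CPM (169 to 241) in replicate 1 against 134 CPM (128 to 140), led by *Lyve1* with 54 of 127 UMIs. They had 4 UMIs in the control cells, 131 CPM against 31.1 CPM, and 1 UMI in replicate 2, 29.4 CPM against 95.6 CPM. The part of other cells in the levels was not tested.

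Both sexes contributed to the response in EC-iCOUPOE replicate 1. Cells with *Xist* and no Y-linked UMI passed the gate in 62 of 1749 (3.54%, 2.73 to 4.52%), and cells with a Y-linked UMI and no *Xist* in 46 of 1111 (4.14%, 3.05 to 5.48%). These intervals overlapped, so the response was not limited to the mice of 1 sex. In EC-iCOUPOE replicate 2 the numbers were 5 of 530 and 1 of 185, and in the control library 5 of 1755 and 0 of 114, the latter allowing up to 2.63% at the limit of 3 cells. Cells with a Y-linked UMI were thus rarer beside *Xist* cells in the control library than in either EC-iCOUPOE library. The part of this balance in the shares was not tested.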

How the data were processed

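Droplet-based single-cell libraries were analysed from the UMI counts per gene and cell that the authors deposited, made with Cell Ranger on the mouse build mm10; the labels give version 3.0.2, and the file headers 3.0.2 for the control library and EC-iCOUPOE replicate 2 and 3.1.0 for EC-iCOUPOE replicate 1. Rows naming genes common to the 3 libraries (31053) were used, and no column was left without a sample. Cell filters and the gate are given in the text above. Clusters came from Seurat 5.3.0 in R 4.3.3 (2000 variable genes, reciprocal principal component integration, 30 components, 20 neighbours, resolution 1), with the gate genes, interferon, MHC and chemokine lists and the genes of the study left out. Doublets were scored with Scrublet in scanpy 1.11.5 (Python 3.11.15) at an expected 6% and were kept. UMIs were summed per library and cell group and tested with edgeR 4.0.16 (quasi-likelihood, TMM scaling, library as block, Benjamini-Hochberg adjustment), in libraries with at least 10 interferon-stimulated cells. DESeq2 1.42.0, another gene filter, no block, matched cells, other gates, thinning and leaving out each library were alternatives. The libraries carry no pairing of animals, and both groups of cells of a library are from the same mice.

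The members and gene lists were chosen with earlier results of these data known. Named were the gate genes, 5 genes of the study, up to 6 genes a list with the largest smallest log2 ratio over the 3 libraries, those lower in all 3, and tested genes past the threshold that changed the same way in both libraries. Ratios used no pseudocount. Matched cells were 5 per interferon-stimulated cell, of the same library and cluster and the nearest depth. On counts simulated for the 2-library design over 8697 genes, the edgeR fit called 48 of 50 genes raised 4-fold and 13 of 50 raised 2-fold, 19 of 50 lowered 4-fold and 6 of 50 lowered 2-fold, and 3 of 8503 unchanged genes. The simulation gave all genes the same dispersion, no library effect and no outlying cell. It therefore does not give the error rate of the test on the real sums. *Mx2*, *Ifgga3* and *Cxcl11* were not analysed here. Replicates are libraries, and nothing says whether they came from separate litters. Promoter sequences and gene places are from RefSeq on GRCm38.p6. A gene of the signalling list is not reported here by name.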

Additional observations from a re-analysis of the deposited data

Results flagged for a closer look

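Cells outside the EC gate also held at least 6 gate UMIs more often in the EC-iCOUPOE libraries than in the control library. The share was 0.427% in EC-iCOUPOE replicate 1 (1 of 234 cells) and 1.74% in EC-iCOUPOE replicate 2 (3 of 172 cells), against 0.0666% in the control library (2 of 3004 cells). These cells enter no comparison of EC. The exact 95% interval of replicate 1 (0.0108 to 2.36%) overlapped that of the control library (0.00806 to 0.240%), and that of replicate 2 (0.361 to 5.01%) lay above it. The EC-iCOUPOE values rest on 4 cells in all, with 1 control library.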

How the results depend on the processing

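Among the values that answer a comparison, 72 alternatives kept the result, 28 moved it and 2 reversed it. The share of interferon-stimulated EC was 0.689%, 7.13% and 2.80% at 4 gate UMIs and 0.0810%, 0.996% and 0.467% at 10, in the control library and EC-iCOUPOE replicates 1 and 2. Thinned to 1000 UMIs it was 2.10% in replicate 1, and to 2000 UMIs 1.26% there and 0.0708% in the control library. PCV-like cells of replicate 1 passed in 4.97% with classes set per cell and in 3.33% when thinned, the latter chosen after seeing the data. Cells with at least 2 Y-linked UMIs passed in 0 of 61 in replicate 2. Leaving out each library gave 12 to 23 type I response genes and 7 to 8 GTPases at least 2-fold higher, 23 and 8 of them without the control library and 8 GTPases without replicate 2. Over all 4808 genes 51 were higher without the control library, 111 without replicate 1 and 30 without replicate 2. In that order 7, 371 and 1 were at least 2-fold lower. Against matched cells *Madcam1* in replicate 2 turned to -0.021, *Hey1* in replicate 1 to 0.44, and *St6gal1* in replicate 2 moved to 3.91, on the log2 scale, and the cause was not tested.

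Higher genes in the test numbered 3 with DESeq2, 13 over all genes with a UMI, 11 with all gated EC and 11 without the highest 6% of Scrublet scores, and 1 to 8 when an EC-iCOUPOE library was left out and the control library kept. Lower genes numbered 0 with DESeq2, 1 against matched cells, 0 at 10 gate UMIs, 16 without the highest Scrublet scores and 4 to 7 with a library left out. Without the replicate block for library 0 genes were higher and 0 lower, with 153 at an unadjusted p under 0.05 in edgeR. Over the 11 alternatives the 16 calls were tested 168 times, of which 93 kept the call and 75 lost it. A fit on a single EC-iCOUPOE library could not be made, since no residual degree of freedom is left. The control library limits every comparison that it enters by its 7 cells and 30539 UMIs.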

Other observations

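Some genes of the interferon lists were almost silent in other control EC and present in other EC-iCOUPOE EC. *Trim30d* stood at 0 CPM in other control EC against 27.4 and 21.0 CPM in EC-iCOUPOE replicates 1 and 2, *Trim12a* at 0.506 against 52.2 and 54.1 CPM, and *Ifi213* at 0.253 against 23.3 and 18.4 CPM. These genes were chosen after their values were seen. The control label gives strain C57BL/6 and the EC-iCOUPOE label gives alleles and no background strain, so genotype, strain and library cannot be told apart here. The file headers name the same Cell Ranger version for the control library and replicate 2 and a later one for replicate 1, and whether the processing differed in other ways was not tested.

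The GTPase pair *Tgtp1* and *Tgtp2* separated the EC-iCOUPOE libraries from each other. *Tgtp2* stood at 221 CPM in other blood EC of replicate 2 and at 9.66 CPM in those of replicate 1, and *Tgtp1* at 166 and 8.17 CPM. In interferon-stimulated cells *Tgtp2* stood at 1029 and 39.8 CPM in the same order. Both genes were chosen after their values were seen, and reads may be split between them. Of the 23 UMIs of *Mx1* in interferon-stimulated cells of replicate 1, listed in RefSeq as a transcribed pseudogene, 17 were in the cell with 261 gate UMIs.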
